A study of Mus musculus with 30 samples.

Results

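The genes described here are 35 mouse genes of sterol and fatty acid synthesis, listed by symbol and divided by role into a mevalonate arm of 7 genes, a squalene to cholesterol arm of 11, 5 genes of SREBP control and sterol transport, 4 genes of acetyl-CoA supply and fatty acid synthesis, 6 genes of elongation and desaturation, and 2 of sterol efflux. They were measured in CD4+ T cells of the spleen with 2 kits. The RNA-seq tables held 34 of the 35 among 34030 named genes (Hmgcs1 was not analysed there), and the QuantSeq tables held all 35 among 55480. After the filter on low counts 34 of 17013 genes tested by RNA-seq and 33 of 14380 tested by QuantSeq belonged to the list. The 2 left out of the QuantSeq tests were Idi1, with counts in 2 of the 22 libraries, and Scd1, with at most 23.4 CPM (counts of the gene per 1000000 counts of the library) in any library.

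All mice were C57BL/6 of 8 weeks, and libraries were made from 10 ng of RNA. The 8 RNA-seq libraries (NEB Next Ultra) were 2 of naive cells (wild type, gated CD4+CD62L+CD44-CD25-), 2 of TH2 cells (IL-4BacTg, CD4+hCD2+), 2 of TFH cells (OTII, CD4+CD45.2+CXCR5hi PD1+), and 1 each labelled TH2 (IL-4BacTg x OTII, CD4+hCD2+) and TFH2 (IL-4BacTg x OTII, CXCR5hi PD1+). The 22 QuantSeq 3' libraries (Lexogen) were 4 of TH2 cells (IL-4BacTg x OTII, CD4+hCD2+), 8 of TFH cells (OTII) sorted as CXCR5hi (3), CXCR5int (2) and CXCR5lo (3), 6 of TFH2 cells (IL-4BacTg x OTII) with 2 in each of the same 3 gates, 2 of Bcl6f/fCd4cre x OTII cells (CD4+hCD2+) and 2 of Il4-/- x OTII cells (CD4+). TH2 cells are helper cells that make interleukin 4, and TFH cells are follicular helper cells that carry CXCR5 and PD1. The TH2 and TFH groups of the RNA-seq therefore differ in transgene and gate as well as in cell type, and the Il4-/- x OTII gate had no hCD2. The labels name no animals or cultures, so p-values measure the spread between libraries, which may be technical.

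Cholesterol is built from acetyl-CoA through mevalonate, the isoprenoid intermediates, squalene and lanosterol. The SREBP transcription factors, held in the endoplasmic reticulum by INSIG and escorted by SCAP when sterols run low, induce these enzymes, and SREBP1 also induces fatty acid synthesis and desaturation. Dividing T cells need both lipids for new membrane, while LXR receptors induce the efflux pumps ABCA1 and ABCG1 when sterols are plentiful.

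Promoters are shown for 3 genes of the mevalonate and sterol arms, as RefSeq gives them on GRCm38.p6. Each is the 250 bases before the RefSeq start, 5′ to 3′ on the gene's strand, with 2 strings in capitals. The first is CCAAT, the CCAAT box, which reads ATTGG where it lies on the reverse strand, and the other is TCACNCCAC, the core of the sterol regulatory element. Hmgcs1 (chr13:119690101-119690350, + strand) was the 1 matched promoter of the list with that core, Lss (chr10:76531355-76531604, + strand) had a single CCAAT, and Acat2 (chr17:12960726-12960975, - strand) had neither. The last bases of the Lss and Acat2 windows lie inside the GENCODE M21 gene.
Hmgcs1: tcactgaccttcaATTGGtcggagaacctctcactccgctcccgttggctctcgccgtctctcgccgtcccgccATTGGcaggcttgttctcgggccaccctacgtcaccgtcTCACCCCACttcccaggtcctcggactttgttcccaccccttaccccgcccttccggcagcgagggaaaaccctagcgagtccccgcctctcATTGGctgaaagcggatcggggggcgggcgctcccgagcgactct
Lss: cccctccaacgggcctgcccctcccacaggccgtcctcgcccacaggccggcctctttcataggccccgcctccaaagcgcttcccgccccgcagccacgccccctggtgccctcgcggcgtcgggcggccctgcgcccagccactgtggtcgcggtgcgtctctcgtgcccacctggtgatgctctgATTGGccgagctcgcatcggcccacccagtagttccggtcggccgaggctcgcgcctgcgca
Acat2: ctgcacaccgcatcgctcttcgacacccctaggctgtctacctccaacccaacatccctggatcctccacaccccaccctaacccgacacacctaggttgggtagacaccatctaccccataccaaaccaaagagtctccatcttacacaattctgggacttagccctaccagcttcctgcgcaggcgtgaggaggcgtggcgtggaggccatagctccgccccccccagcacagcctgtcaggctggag
The core in Hmgcs1 began 137 bases before the start, and its 3 CCAAT boxes began 237, 176 and 45 bases before it, all on the reverse strand. The CCAAT box of Lss began 62 bases before the start. These 3 genes, and the strings set in capitals, were chosen after the matches had been counted.

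RefSeq promoters matched 27 of the 35 genes. Among 9 strings searched on both strands, CCAAT stood in 20 of the 27 (74.1%), against 37.5% of all 27025 genes with a promoter and 40.3% of the 11086 that were tested by RNA-seq. GGGCGG, the GC box, stood in 22 (81.5%), against 35.4% and 59.9%. CACGTG, an E-box, stood in 7 (25.9%), against 6.86% and 9.44%. TCACNCCAC stood in 1 (3.70%), against 1.22% and 1.21%, and the looser TCACNCNAC, which contains it, in 2 (Hmgcs1 and Nsdhl, 7.41%), against 2.65% and 2.79%. TCACNTGA, the sterol regulatory element core preceded by A, the full consensus of that element and the direct repeat bound by LXR each stood in 0 of 27, against 3.98%, 0.226%, 0.0814% and 0.0148% of all genes. A match of letters is a description of the window and not a site.

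Before any comparison, the labels were set against marker genes, chosen for this check after values had been seen. All 7 T cell markers were counted in every library. Both single RNA-seq libraries went against their labels: the library labelled TFH2 CXCR5hi held 1.11 CPM of Cxcr5, 5.97 of Pdcd1 and 13.1 of Bcl6, against 438 and 442 CPM of Cxcr5 in the TFH libraries, while the library labelled TH2 (IL-4BacTg x OTII) held 135, 139 and 121 CPM of the same genes and more summed B cell (1709 CPM), macrophage (285) and erythroid (207) marker signal than any other RNA-seq library. No test here uses the value of either as a group compared. Sex-linked transcripts also divided the libraries: Xist was at 572 to 1195 CPM in the naive and TH2 RNA-seq libraries, where the TFH libraries had Ddx3y at 81.5 and 86.3, so donor sex and cell type cannot be told apart in the RNA-seq contrasts with TFH. In QuantSeq, TH2 replicates 1 and 2, all TFH and both Bcl6f/fCd4cre libraries carried Xist, and TH2 replicates 3 and 4, all TFH2 and both Il4-/- libraries carried Ddx3y (numbers only name libraries). Naive cell markers summed to 1090 to 1341 CPM in the QuantSeq TH2 libraries, 41.7 to 170 in TFH CXCR5hi and 612 to 1216 in TFH CXCR5lo. TH2 markers summed to 1667 to 2500 CPM in TH2 and 114 to 281 in TFH CXCR5hi, but the single markers differed in direction. For TFH CXCR5hi against TH2, log2 differences were -1.62 for Gata3 and -3.86 for Il4ra (edgeR adjusted p = 0.00157 and 0.000124). For Il4, Il13 and Il1rl1 they were 1.34, 1.96 and -2.46 (0.856, 0.679 and 0.684). With TFH2 gates pooled against TH2, log2 differences were 3.64 for Il4, 5.24 for Il13 and 5.03 for Il1rl1 (edgeR adjusted p = 0.239, 0.0883 and 0.257). Those of Gata3 and Il4ra were 0.16 and -3.57 (0.906 and 1.55e-05). Macrophage markers summed to 1.01 to 6.96 CPM in the QuantSeq TH2 libraries, 96.6 to 243 in TFH and 335 to 1885 in TFH2. Erythroid markers summed to 0 to 39.4 CPM in TH2, 40 to 343 in TFH and 424 to 1636 in TFH2 QuantSeq libraries. The part of either in the results was not tested.

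Depth was 36.05 M to 107.4 M counts by RNA-seq and 1.83 M to 4.44 M by QuantSeq. The RNA-seq figures sum over all transcripts. With 1 transcript kept per gene, the RNA-seq counts used for CPM were 12.56 M to 35.64 M. Between replicate libraries, 0.700 to 1.70% of genes differed by more than 2-fold by RNA-seq, against 22.9 to 31.3% by QuantSeq. The Bcl6 check of the Bcl6f/fCd4cre libraries gave 6.73 and 26.4 CPM, against 0.390 to 13.2 in TH2, and a 3' tag may lie outside the floxed part. Il4 counts were 0 and 3 in the Il4-/- libraries and 0, 0, 40 and 0 in TH2, too few to check that label.

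TH2 cells had more RNA of most sterol and desaturase genes than naive cells by RNA-seq. A gene was called when its adjusted p was under 0.05 in edgeR's quasi-likelihood test with Benjamini-Hochberg adjustment over all genes. Of 34 genes, 25 were called higher and 7 lower in TH2 cells, against 33.9% and 31.9% of all genes (65.8% in either direction). The median log2 difference was 0.70 for the list and 0.00 for all genes. TFH cells against naive cells had 15 higher and 10 lower, against 29.6% and 27.6% (57.2% in either direction), with a median of 0.14 and 0.00. With any 1 of the 4 naive and TFH libraries left out the lower calls were 6 or 7 and the higher calls 11 or 12, and DESeq2 gave 7 and 12. TFH cells against TH2 cells had 7 higher and 20 lower, against 30.8% and 31.0% (61.8% in either direction), with a median of -0.56 and -0.01. Values of the groups did not overlap for 33, 31 and 29 of the 34 genes in these comparisons, against 80.8%, 80.6% and 78.7% of all genes. Each pair of comparisons shares a group of libraries. The same shares of all genes called are the background of the counts by role that follow. In bulk RNA, fewer cells of a type and less RNA per cell cannot be told apart. Summed CPM of 14 cell cycle genes was 404 and 415 in naive, 3999 and 4173 in TH2 and 588 and 595 in TFH libraries, and its part in these differences was not tested.

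**Figure D1:**
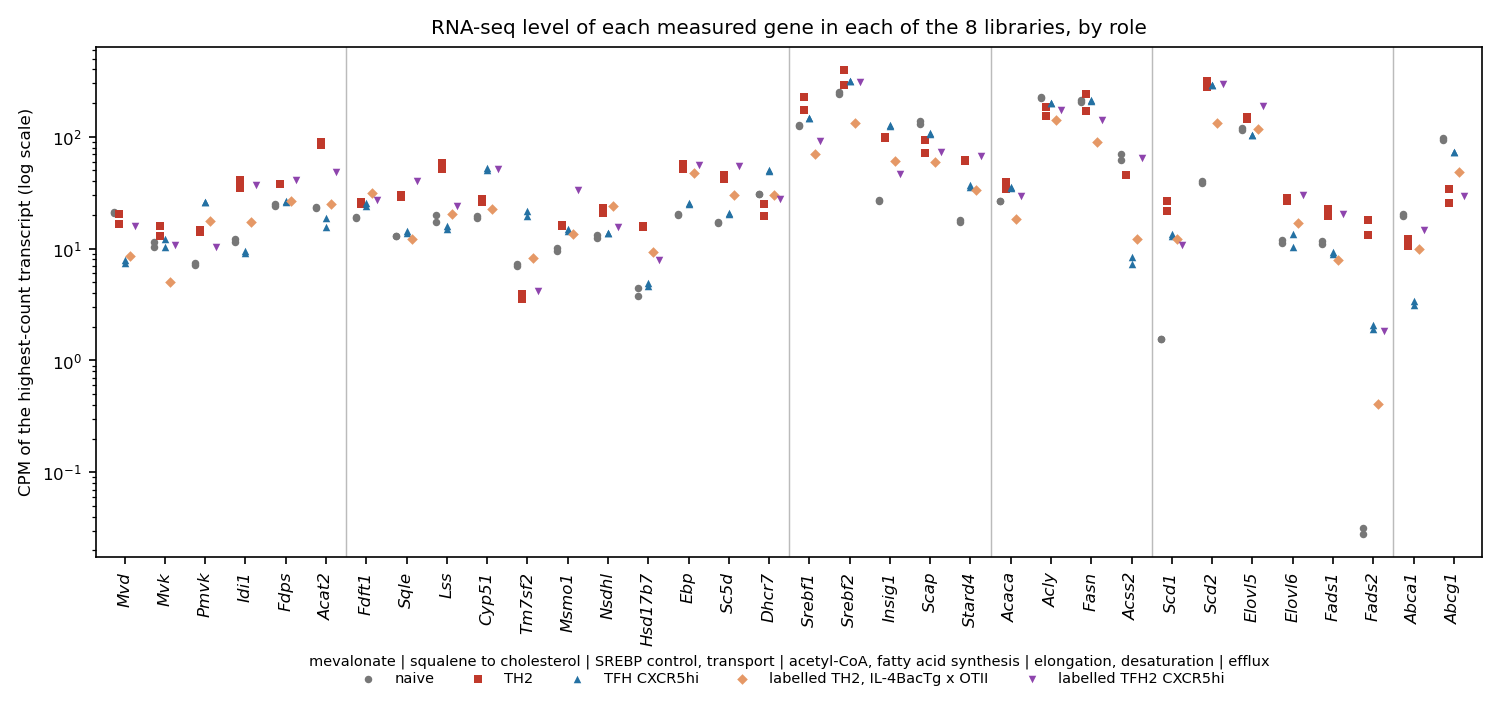
Level of each of the 34 genes in the 8 RNA-seq libraries, in CPM on a log axis, grouped by role, with 1 point per library. Acat2 and Lss are highest in the TH2 libraries, Acss2 lies at 7.24 and 8.39 CPM in TFH against 62.5 and 69.8 in naive, and Srebf2 is among the highest in every library.

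The mevalonate arm rose in TH2 cells and was lower in TFH than in TH2 cells. Of its 6 measured genes, 5 were called higher and 0 lower in TH2 against naive (median log2 0.82), 1 higher and 3 lower in TFH against naive (-0.17), and 1 higher and 5 lower in TFH against TH2 (-0.94). Acat2, which condenses acetyl-CoA to acetoacetyl-CoA, was at 23.4 and 23.1 CPM in naive, 89.8 and 84.7 in TH2 and 18.8 and 15.6 in TFH libraries. Idi1, the isomerase of the isoprenoid building blocks, was at 11.4 and 12.3, 40.7 and 35, and 9.09 and 9.49 CPM in the same order. For both genes the TH2 libraries stood above the naive and TFH libraries, and TFH below naive. The log2 difference of TH2 from naive was 1.92 ± 0.10 (SE, n = 2 and 2, edgeR adjusted p = 1.13e-08) for Acat2 and 1.69 ± 0.11 (1.01e-07) for Idi1. That of TFH from TH2 was -2.37 ± 0.10 (3.16e-09) for Acat2 and -2.07 ± 0.12 (3.12e-08) for Idi1. Acat3, a near-identical neighbour of Acat2, had 31.9 and 29.9, 109 and 103, and 27.7 and 23.2 CPM, so the level of Acat2 itself is uncertain where reads were divided between the copies.

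Fdps, the farnesyl diphosphate synthase, was at 25.1 and 23.9 CPM in naive, 37.9 and 38.2 in TH2 and 26.0 and 26.7 in TFH libraries. TH2 was the high group by 0.65 ± 0.077 on the log2 scale (edgeR adjusted p = 1.85e-05). Pmvk, the phosphomevalonate kinase, was at 7.46 and 7.07, 14.2 and 14.7, and 26.3 and 26.3 CPM. It was the 1 gene of the arm higher in TFH than in TH2, by 0.83 ± 0.10 (adjusted p = 2.37e-05). Mvd, the decarboxylase that follows it, was at 20.7 and 21.3, 16.7 and 20.5, and 7.85 and 7.51 CPM, lower in TFH than in TH2 by a log2 difference of -1.31 ± 0.12 (adjusted p = 2.5e-06). Mvk, the mevalonate kinase, was at 11.4 and 10.4, 12.9 and 16.0, and 12.3 and 10.4 CPM. Its TH2 and TFH values lay close, and its calls against naive (0.43, adjusted p = 0.0184) and against TFH (-0.38, adjusted p = 0.0336) were lost under some alternatives.

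Most genes of the squalene to cholesterol arm were higher in TH2 than in naive cells, and TFH differed from TH2 in both directions. Of the 11 genes, 9 were higher and 2 lower in TH2 against naive (median 0.78). Against naive, TFH had 7 higher and 1 lower (0.30). Against TH2, TFH had 3 higher and 6 lower (-0.70), beside 30.8% and 31.0% of all genes. The 3 of 11 higher in TFH were thus near the share of all genes. Lss, the lanosterol synthase, was at 19.8 and 17.4 CPM in naive, 51.5 and 58.2 in TH2 and 15.1 and 15.9 in TFH libraries. Sqle, the squalene epoxidase, a rate-limiting step, was at 12.9 and 13.0, 29.2 and 29.9, and 13.8 and 14.3. Hsd17b7, a sterol ketone reductase, was at 3.75 and 4.41, 15.9 and 15.7, and 4.91 and 4.59. In all 3 genes the TH2 values stood apart and the TFH values lay near the naive ones. Log2 differences of TH2 from naive were 1.58 ± 0.093 for Lss (edgeR adjusted p = 4.91e-08), 1.21 ± 0.090 for Sqle (3.52e-07) and 1.96 ± 0.14 for Hsd17b7 (2.15e-07). Those of TFH from TH2 were -1.86 ± 0.097 (1.85e-08), -1.11 ± 0.092 (9.28e-07) and -1.76 ± 0.14 (6.74e-07).

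Ebp, the sterol isomerase, was at 19.9 and 20.6 CPM in naive, 57.7 and 51.9 in TH2 and 25.3 and 25.4 in TFH libraries. Sc5d, the C-5 desaturase, was at 17.0 and 17.4, 45.1 and 42.3, and 20.9 and 20.5. Nsdhl, the decarboxylating dehydrogenase of the pathway, was at 13.2 and 12.5, 23.0 and 20.7, and 13.7 and 13.8. All 3 were highest in TH2, with log2 differences of TFH from TH2 of -1.15, -1.11 and -0.70 (edgeR adjusted p of 4.29e-07, 4.45e-07 and 0.000161). Ebp and Nsdhl lie on the X chromosome, and the libraries differ in sex-linked transcripts as given above. Msmo1, the methylsterol oxidase, was at 9.60 and 10.1, 16.3 and 15.8, and 14.4 and 15.1 CPM. Fdft1, the squalene synthase, was at 19.1 and 18.9, 26.2 and 25.1, and 24.3 and 25.4. Both were higher in TH2 than in naive (0.72 and 0.45), and their differences between TFH and TH2 of -0.16 and -0.08 did not pass the test (adjusted p = 0.193 and 0.443).

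Cyp51, Tm7sf2 and Dhcr7 were higher in TFH than in TH2 cells. Cyp51, the lanosterol demethylase, was at 18.6 and 19.7 CPM in naive, 27.8 and 25.9 in TH2 and 50.8 and 52.1 in TFH libraries. Tm7sf2, a sterol C-14 reductase, was at 6.99 and 7.32, 3.97 and 3.53, and 21.9 and 19.5. Dhcr7, a terminal reductase of the pathway, was at 30.8 and 30.8, 19.5 and 25.0, and 49.7 and 50.3. TFH was the high group for each, while TH2 was below naive for Tm7sf2 and Dhcr7. Log2 differences of TFH from TH2 were 0.90 ± 0.081 (edgeR adjusted p = 1.99e-06), 2.43 ± 0.14 (5.13e-08) and 1.13 ± 0.099 (1.58e-06). Exons of Fdft1 overlap Ctsb on the other strand over 774 bases, those of Cyp51 overlap Akap9 over 166, and those of Tm7sf2 overlap Vps51 on its own strand over 532 bases. No source used here says whether counting used strand, so these levels may include reads of the neighbours.

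**Figure D2:**
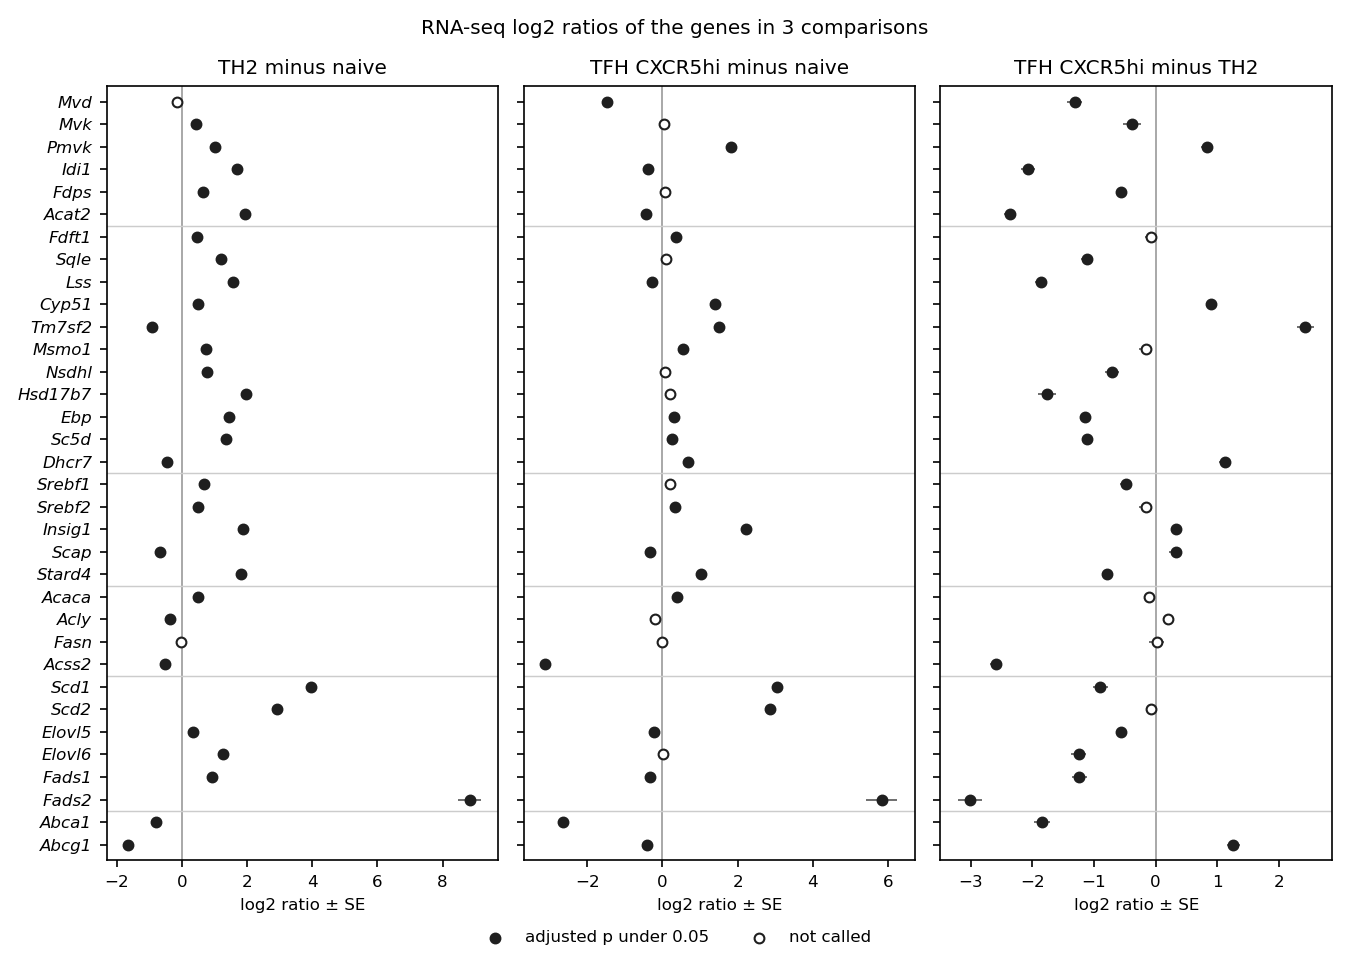
Log2 difference with its standard error for each of the 34 genes in 3 RNA-seq comparisons, grouped by role, with filled points for genes called at an adjusted p under 0.05. Most mevalonate and sterol genes lie right of 0 in TH2 against naive, with Mvd, Tm7sf2 and Dhcr7 left of it. Most lie left of 0 in TFH against TH2, with Pmvk, Cyp51, Tm7sf2 and Dhcr7 right of it.

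Of the 5 SREBP control and transport genes, 4 were higher and 1 lower in TH2 against naive (median 0.67), 3 higher and 1 lower in TFH against naive (0.33), and 2 higher and 2 lower in TFH against TH2 (-0.16). Insig1, which retains SREBP and is itself an SREBP target, was at 27.0 and 26.9 CPM in naive, 99.8 and 97.1 in TH2 and 128 and 126 in TFH libraries. Stard4, a cholesterol transfer protein, was at 18.1 and 17.3, 62.1 and 61.0, and 35.6 and 37.2. Both were lowest in naive cells, and TFH exceeded TH2 for Insig1 (0.33 ± 0.069, edgeR adjusted p = 0.00149) and fell short of it for Stard4 (-0.79 ± 0.076, 2.56e-06). Srebf2, the factor of sterol synthesis, was at 249 and 243, 292 and 394, and 315 and 313 CPM. Srebf1, the factor of fatty acid synthesis, was at 127 and 126, 174 and 226, and 146 and 147. Scap, the SREBP escort, was at 137 and 129, 71.6 and 94.2, and 108 and 106. In each the TH2 libraries differed from each other more than the naive pair or the TFH pair did. Srebf2 was higher in TH2 than in naive by 0.49 ± 0.11 (adjusted p = 0.00234), and its TFH to TH2 difference of -0.16 did not pass (0.235). Srebf1 was higher in TH2 than in naive (0.67) and lower in TFH than in TH2 (-0.48, adjusted p = 0.00118). Scap was lower in TH2 than in naive (-0.67, adjusted p = 0.000166) and higher in TFH than in TH2 (0.33, 0.0176), a call lost without either TFH library (edgeR adjusted p = 0.133 without replicate 1 and 0.0693 without replicate 2). Per kilobase of the counted transcript, Srebf2 was the highest of the 34 genes in TH2 cells (67.6 CPM per kb) and in TFH cells (61.9), and Acly was the highest in naive cells (50.5, next to Srebf2 at 48.4). An exon of Srebf1 overlaps Rai1 on the other strand over 109 bases.

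The 4 genes of acetyl-CoA supply and fatty acid synthesis did not rise as a group. In TH2 against naive 1 was higher and 2 lower (median -0.20), in TFH against naive 1 was higher and 1 lower (-0.10), and in TFH against TH2 0 were higher and 1 lower (-0.04). Acaca, the acetyl-CoA carboxylase, was at 26.4 and 26.6 CPM in naive, 34.3 and 39.4 in TH2 and 35.6 and 34.6 in TFH libraries. It was higher than naive in TH2 (0.49, edgeR adjusted p = 0.00028) and in TFH (0.39, 0.00206). Fasn, the fatty acid synthase, was at 212 and 206, 170 and 239, and 212 and 211, and was the 1 gene of the 34 called in none of the 3 comparisons. Acly, which makes cytosolic acetyl-CoA from citrate, was at 225 and 222, 154 and 186, and 200 and 200, lower in TH2 than in naive by a log2 difference of -0.38 (adjusted p = 0.00175). Acss2, which makes acetyl-CoA from acetate, was at 69.8 and 62.5 CPM in naive and 7.24 and 8.39 in TFH libraries, with a mean of 45.5 CPM in TH2 libraries (SD 0.523, n = 2). Its TFH values stood far below both other groups, with log2 differences of -3.11 ± 0.10 from naive (5.31e-10) and -2.59 ± 0.10 from TH2 (1.67e-09). Exons of Acss2 overlap Ggt7 over 197 and Gss over 163 bases on the other strand.

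Desaturases and elongases rose in TH2 cells. All 6 were called higher in TH2 against naive (median 2.09), 3 were higher and 2 lower in TFH against naive (1.44), and 0 were higher and 5 lower in TFH against TH2 (-1.07). Scd1 and Scd2 place the first double bond in stearate and palmitate. Scd2 was at 40.5 and 38.4 CPM in naive, 280 and 314 in TH2 and 289 and 293 in TFH libraries. Scd1 was at 1.57 and 1.57, 21.7 and 26.7, and 13.1 and 13.6. Scd2 was high in both effector groups, with log2 differences from naive of 2.93 ± 0.082 in TH2 (edgeR adjusted p = 1.11e-10) and 2.86 ± 0.082 in TFH (2.28e-10), and its difference between them of -0.07 ± 0.075 did not pass (0.469). Scd1 was 3.95 ± 0.14 above naive in TH2 (8.26e-10) and 0.90 lower in TFH than in TH2, a difference of -0.90 ± 0.12 (5.14e-05).

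Fads2, the delta-6 desaturase of polyunsaturated fatty acids, had 1 count in each naive library, 298 and 452 in TH2 and 53 and 40 in TFH libraries. These are 13.3 and 18.1 CPM in TH2 and 1.93 and 2.09 in TFH, a log2 difference of TFH from TH2 of -3.00 ± 0.20 (edgeR adjusted p = 1.25e-07). Fads1, the delta-5 desaturase, was at 11.6 and 11.1 CPM in naive, 19.6 and 22.6 in TH2 and 9.31 and 9.02 in TFH libraries. Elovl6, which lengthens palmitate, was at 12.0 and 11.3, 28.4 and 26.8, and 10.4 and 13.6. Both were highest in TH2, by 0.91 ± 0.11 and 1.26 ± 0.12 over naive (1.99e-05 and 3.54e-06). Elovl5, the elongase of polyunsaturated fatty acids, was at 121 and 116, 149 and 145, and 103 and 103 CPM. Its TFH values were the lowest and differed from TH2 by -0.55 ± 0.072 (4.42e-05).

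Both efflux pumps were below naive in both effector groups, and they differed in opposite directions between them. Abca1 was at 20.6 and 19.4 CPM in naive, 10.6 and 12.3 in TH2 and 3.38 and 3.13 in TFH libraries. Abcg1 was at 97.3 and 93.2, 25.8 and 33.8, and 73.3 and 73.3. Abca1 was lowest in TFH and Abcg1 lowest in TH2, with log2 differences of TFH from TH2 of -1.84 ± 0.14 (edgeR adjusted p = 3.31e-07) and 1.26 ± 0.10 (7.76e-07).

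Other lipid genes were counted in the same 3 comparisons. Of all genes, 33.9% were higher and 31.9% lower in TH2 against naive. The shares were 29.6% and 27.6% in TFH against naive, and 30.8% and 31.0% in TFH against TH2. Of 17 tested genes of other sterol handling, 4 were higher and 8 lower in TH2 against naive (median -0.17), 3 and 5 in TFH against naive (-0.08), and 8 and 5 in TFH against TH2 (0.22). In TH2 against naive these included Soat1 (1.83), which esterifies cholesterol, Lpcat3 (1.17), an acyltransferase, Mylip (-1.45), which degrades lipoprotein receptors, and Gramd1a (-2.02), which moves sterol from the plasma membrane. In TFH against TH2 they included Npc2 (-1.78), which moves cholesterol out of lysosomes, and Gramd1a (1.78). Of 17 genes of other fatty acid synthesis and activation, 8 were higher and 2 lower (0.30), 10 and 3 (0.45), and 6 and 7 (-0.16), with Dgat1, which ends triglyceride synthesis, at 1.70 in TH2 against naive and -1.43 in TFH against TH2. Of 16 fatty acid oxidation genes, 11 were higher and 2 lower (0.62), 12 and 2 (0.51), and 3 and 10 (-0.26). Of 14 cell cycle genes, 14 were higher and 0 lower (6.64), 10 and 0 (1.10), and 1 and 13 (-5.23).

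A score of the list, the mean of log2(CPM + 1) over all 35 genes with an unmeasured gene at 0, described each library with no test. It was 4.48 and 4.46 in naive, 5.18 and 5.28 in TH2 and 4.73 and 4.74 in TFH RNA-seq libraries. In QuantSeq it was 3.79, 3.75, 2.57 and 2.46 in TH2 replicates 1 to 4, 3.14 to 3.47 in the 8 TFH libraries, 3.09 to 3.86 in the 6 TFH2 libraries, 2.72 and 2.73 in Bcl6f/fCd4cre and 2.91 and 2.72 in Il4-/-. The TH2 libraries thus fell into a pair with Xist, above every TFH library, and a pair with Ddx3y, below every TFH2 library. Across groups the score did not follow these transcripts. Both Bcl6f/fCd4cre libraries carried Xist and lay below every TFH library, near the TH2 pair with Ddx3y and the Il4-/- libraries. What sets the 2 TH2 pairs apart was not tested. The mean over the 4 TH2 libraries was 3.14 ± 0.72 (SD), and the list had counts for 18 to 31 of its genes there. Summed CPM of the 14 cell cycle genes spanned 223 to 1665 in the same 4 libraries, and its part in the score was not tested.

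**Figure D3:**
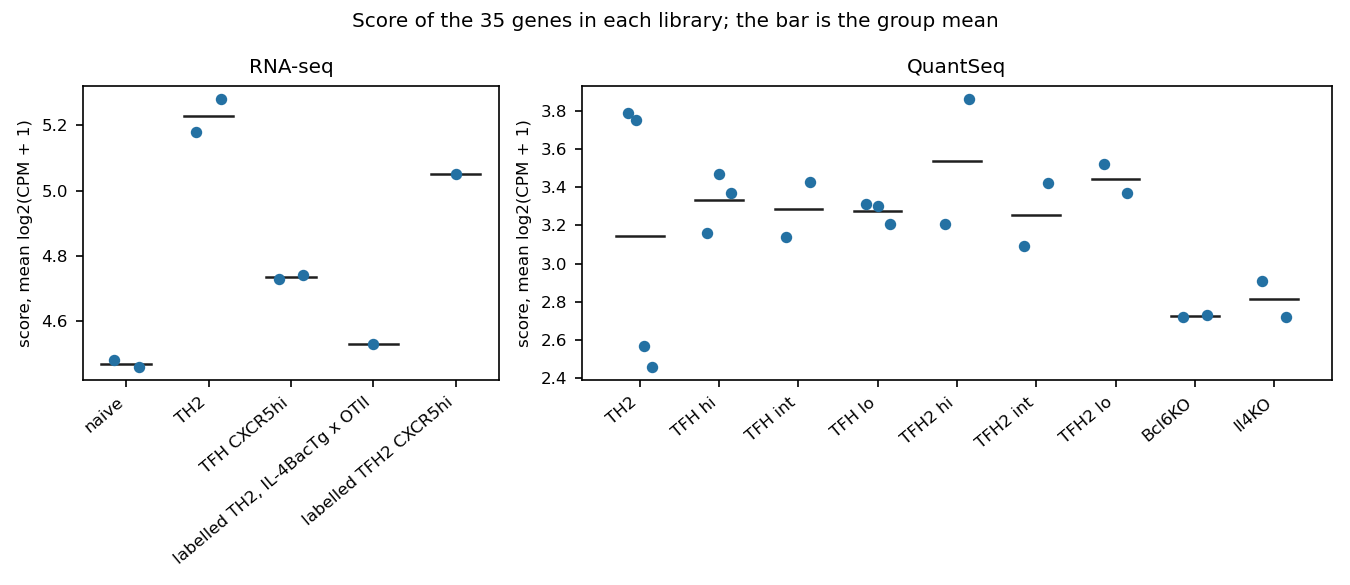
Score of the 35 genes, the mean of log2(CPM + 1), in each RNA-seq and QuantSeq library, with 1 point per library and a bar at the group mean. The RNA-seq TH2 libraries sit at 5.18 and 5.28, above naive and TFH, while the 4 QuantSeq TH2 libraries span 2.46 to 3.79.

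The single RNA-seq libraries were compared with no test, a comparison chosen after seeing values, since 1 library stands for each. Among the 20 genes called lower in TFH than in TH2, the library labelled TFH2 CXCR5hi lay nearer the TH2 mean in 13. The library labelled TH2 (IL-4BacTg x OTII) lay nearer the TH2 mean in 4 of them and nearer TFH in 16. Some of the 16 lay below both groups, such as Srebf1 (69.6 CPM, means of 200 in TH2 and 147 in TFH). Others lay between them, such as Idi1 (17.3, means of 37.9 and 9.29). Among the 7 called higher in TFH, each of the 2 libraries lay nearer TH2 in 6. For Tm7sf2 the libraries labelled TFH2 and TH2 lay between the groups (4.14 and 8.27, means of 3.75 and 20.7). For Insig1 the libraries labelled TFH2 and TH2 lay below both groups (46.7 and 60.5, means of 98.5 and 127). Acat2 was at 48.7 CPM in the former and 25.1 in the latter, Idi1 at 37.1 and 17.3, Sqle at 40.6 and 12.1, and Acss2 at 65.1 and 12.3. The library labelled TH2 (IL-4BacTg x OTII) had 13 of the 34 genes more than 2-fold below the TH2 mean and 0 above it, against 12.8% and 12.3% of 10860 genes with at least 10 CPM in a library. Set against the library labelled TH2 (IL-4BacTg x OTII), the library labelled TFH2 had 9 genes more than 2-fold higher and 0 lower, against 6.98% and 9.48% of the same genes. Both libraries went against their labels, and the labelled TH2 library also held the B cell and macrophage signal given above, whose part was not tested. Nearness was counted to TH2 and TFH alone and not to naive cells. It was not counted over all genes, so the counts of nearness have no background and say nothing particular to this list. Naive cell markers summed to 2186 CPM in the library labelled TFH2, 2316 and 2354 in naive and 756 and 804 in TH2 libraries. TH2 markers summed to 1123 CPM in the library labelled TFH2, 416 and 438 in naive and 2235 and 2545 in TH2 libraries.

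**Figure D4:**
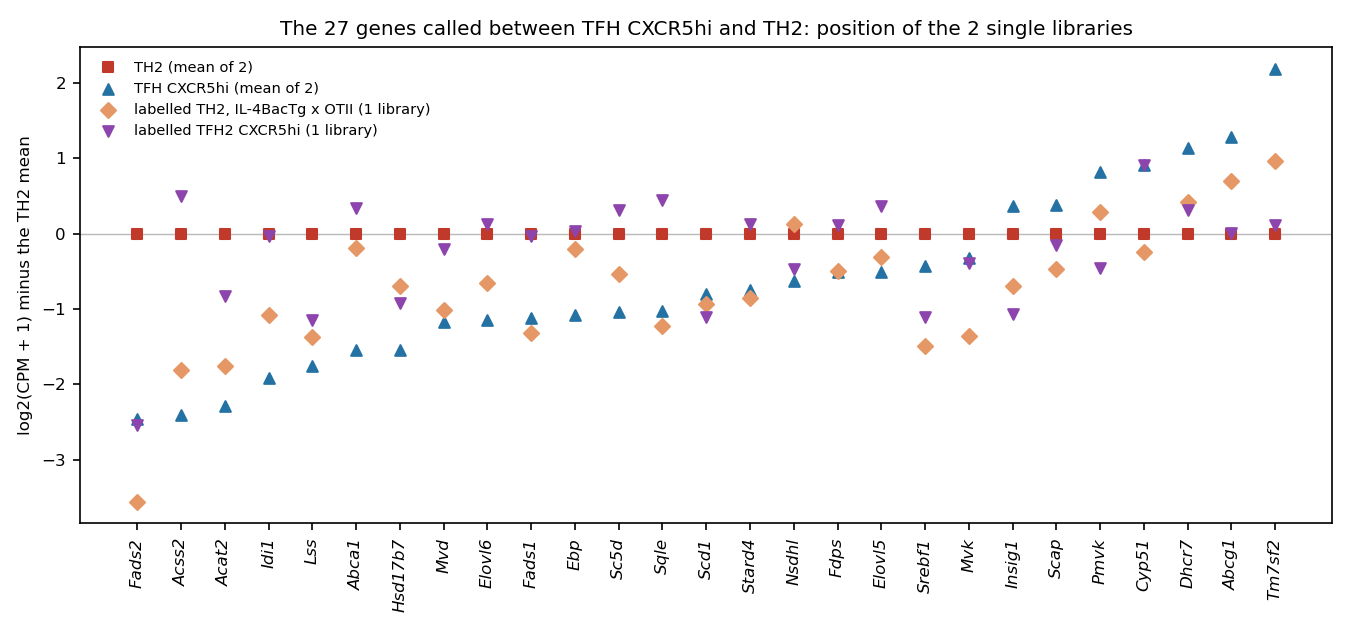
Difference in log2(CPM + 1) from the mean of the TH2 libraries, for the 27 genes called between TFH and TH2, in the TFH mean and in the 2 single libraries. In 13 of the 20 genes lower in TFH the library labelled TFH2 lies nearer 0, the TH2 mean, than the TFH value. Nearness was not counted over all genes.

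QuantSeq called almost no gene of the list. For TFH CXCR5hi against TH2, edgeR called 0 of 33 genes, with 4 at an unadjusted p under 0.05, and 3.51% of all genes. DESeq2 called 2 of the 33, both higher, and 430 higher and 451 lower of all 14380 genes. Here and below, shares of all genes called in QuantSeq are those of edgeR. No share over all genes is given for DESeq2 in the other comparisons, or for an unadjusted p. With the 3 TFH gates pooled, 0 were called, with 4 at an unadjusted p under 0.05, 2 by DESeq2, and 5.22% of all genes called. With the 3 TFH2 gates pooled against TH2, 0 were called, with 3 at an unadjusted p under 0.05, 1 by DESeq2, and 3.93% of all genes called. For TFH2 against TFH 0 were called, with 1 at an unadjusted p under 0.05, 0 by DESeq2, and 0.313% of all genes called. Values did not overlap between the groups for 6 genes in the first of these comparisons (Dhcr7, Acat2, Srebf1, Scap, Acaca and Elovl6), 1 in the second (Dhcr7) and 0 in the other two, against 12.2%, 4.53%, 5.75% and 0.501% of all genes. Medians of the list and of all genes were -0.12 and 0.00, 0.14 and 0.08, 0.20 and 0.09, and -0.01 and 0.00. The list's median changed sign or size with the TH2 libraries used. For TFH CXCR5hi it was 0.15 without TH2 replicate 1, 0.11 without TH2 replicate 2 and -0.52 with only the TH2 pair with Xist. With TFH gates pooled it was -0.09 without TH2 replicate 3, 0.50 without TH2 replicate 1 and -0.40 with only that pair. With TFH2 gates pooled it was -0.16 without TH2 replicate 3, 0.43 without TH2 replicate 1 and 1.34 with only the TH2 pair with Ddx3y.

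Dhcr7 and Acat2 came nearest to a call. Dhcr7 was at 4.29, 7.42, 0.332 and 0 CPM in the TH2 libraries and at 15.6 to 65.3 CPM (median 35.1) in the 8 TFH libraries. The TFH libraries were all above the TH2 libraries, by a log2 difference of 3.51 ± 1.21 (edgeR adjusted p = 0.0726, DESeq2 0.00105). Acat2 was at 31.6, 71.5, 54.4 and 78.9 CPM in TH2 and at 0.831 to 33.7 CPM (median 14.6) in TFH libraries, a difference of -2.09 ± 0.73 (edgeR adjusted p = 0.0759) with 1 TFH library inside the TH2 range. With only the TH2 pair that carried Xist, as TFH did, the Dhcr7 difference was 2.58 (adjusted p = 0.457). Against the TH2 pair with Ddx3y, Dhcr7 of the 6 TFH2 libraries (3.17 to 49.7 CPM) was higher by 6.63 (adjusted p = 0.0463), and with all 4 TH2 libraries by 2.89 ± 1.2 (0.172).

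Acaca had counts in 1 of 4 TH2 libraries (0.337 CPM) and stood at 0 to 46.1 CPM (median 8.22) in TFH libraries. Its fitted difference for the pooled gates was 6.83 ± 2.69 (edgeR adjusted p = 0.0978). By RNA-seq, TH2 and TFH libraries overlapped in Acaca. Sqle was at 19.9, 10.8, 1.99 and 0 CPM in TH2, 0 to 2.22 in TFH, and 12.1, 14.3, 11.7, 14.4, 0 and 16.9 in TFH2 libraries. All TFH2 libraries but CXCR5lo replicate 1 stood above every TFH library, and the difference of 4.22 ± 1.79 did not pass (adjusted p = 0.23). Acss2 was at 35.5, 7.42, 51.1 and 1.08 CPM in TH2, 0 to 18.3 in TFH and 0 to 10.2 in TFH2, with differences from TH2 of -2.15 and -2.28 (adjusted p = 0.498 and 0.535). Lss was at 32.0, 4.72, 0 and 12.4 in TH2 and at 0, 1.70 and 0 in TFH CXCR5hi libraries (-4.38, adjusted p = 0.442). Fdft1 was at 0, 5.4, 0 and 0 CPM in TH2 and 0 to 31.1 in TFH2 (2.87, adjusted p = 0.601). Hmgcs1, the synthase that precedes mevalonate, was at 8.65 to 36.1 CPM in TH2, 5.78 to 65.7 in TFH, 10.1 to 105 in TFH2, 20.0 and 36.2 in Bcl6f/fCd4cre and 10.8 and 39.3 in Il4-/-, and the groups overlapped. Stard4 was at 0.992 to 52.8 CPM in TFH and 3.15 to 21.3 in TFH2 (-1.47, adjusted p = 0.663).

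**Figure D5:**
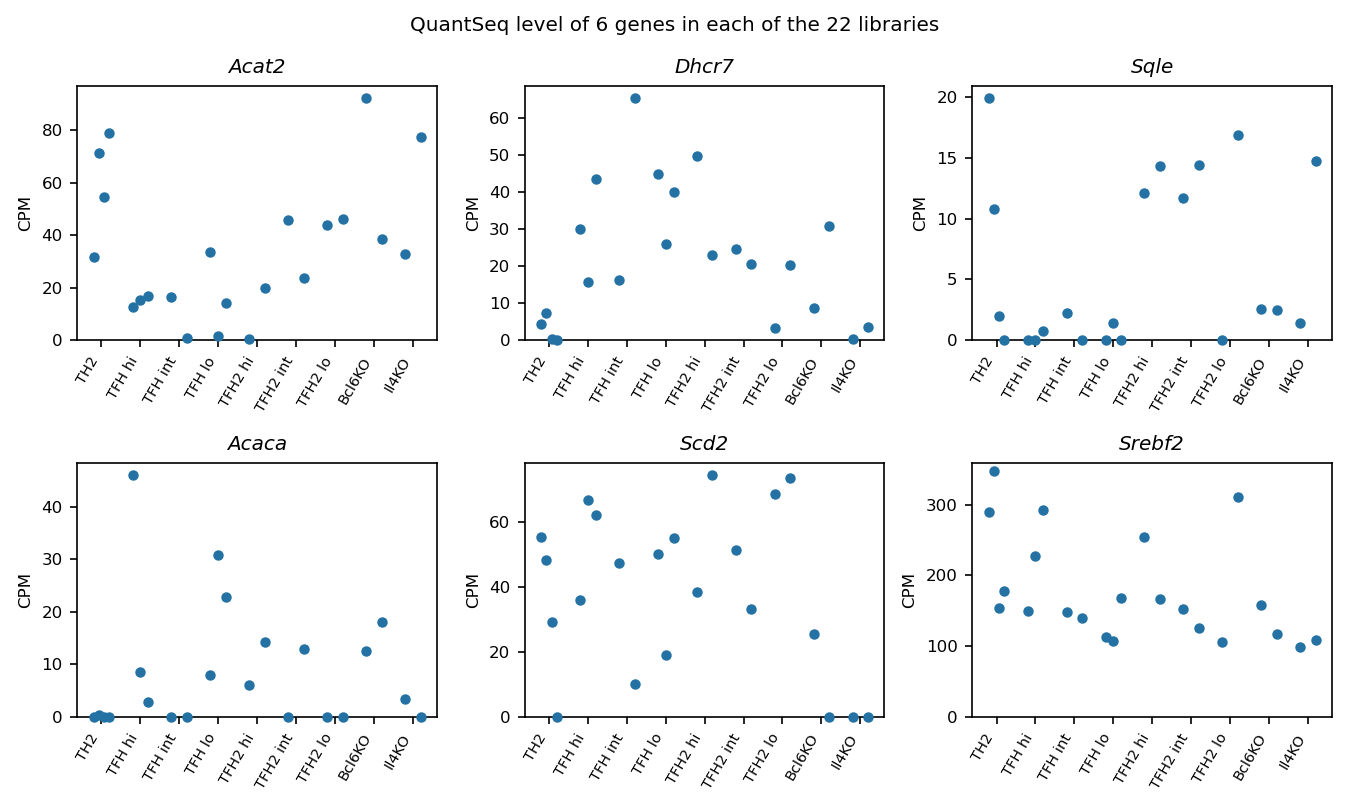
CPM of Acat2, Dhcr7, Sqle, Acaca, Scd2 and Srebf2 in each of the 22 QuantSeq libraries by group, with 1 point per library, genes chosen after their values were seen. Dhcr7 is at 15.6 CPM or more in every TFH library and at 7.42 or less in every TH2 library, and Scd2 is at 0 in both Il4-/- libraries and in 1 TH2 library.

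Across kits, TFH CXCR5hi and TH2 cells were compared in separate libraries, though the TH2 mice differed in genotype. Of 32 genes tested in both, 20 had the same sign, and the log2 differences had a Pearson correlation of 0.45 across these 32 genes. The genes share libraries within each kit and are not replicates. Agreement was not counted over all genes, so these values have no background. Some QuantSeq differences, such as that of Acaca (7.19), were fitted to almost no TH2 counts. Of 25 genes also called by RNA-seq, 18 had the same sign, 13 of 18 lower and 5 of 7 higher. With the 3 TFH gates pooled, 19 of 32 had the same sign (Pearson correlation 0.49), and of the 25 called by RNA-seq 16 did, 10 of 18 lower and 6 of 7 higher. The genes of other lists that passed in QuantSeq were Npc2, lower than TH2 in TFH (-1.66, edgeR adjusted p = 1.4e-08) and TFH2 (-1.75, 3.34e-08), Gramd1a, higher in TFH (1.07, 0.0422), and Hacd3, an elongation enzyme, higher in TFH (1.88, 0.0366) and TFH2 (2.19, 0.0167).

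No gene of the list was called between CXCR5hi and CXCR5lo cells, and CXCR5int was not tested on its own. For CXCR5hi against CXCR5lo edgeR called 0 of 33 in TFH (3 at an unadjusted p under 0.05, 0 by DESeq2, 0.139% of all genes called) and 0 in TFH2 (2 at an unadjusted p under 0.05, 0 by DESeq2, 0.153% called). Medians were -0.13 and -0.27, with 0.00 for all genes in both. Values did not overlap for 2 genes in TFH (Pmvk and Stard4, against 8.96% of all genes) and 11 in TFH2, against 27.8%. Pmvk was at 48.5, 11.6 and 11.2 CPM in CXCR5hi and 0, 3.66 and 0.326 in CXCR5lo TFH libraries, a difference of 4.09 ± 2.45 (edgeR adjusted p = 0.645). Nsdhl and Abcg1, the next by size, had differences of -2.09 and 1.37 with overlapping libraries. Mvk was at 25.0 and 17.2 CPM in CXCR5hi and 0 and 0 in CXCR5lo TFH2 libraries (adjusted p = 0.842), and Acaca at 6.06 and 14.3 against 0 and 0 (0.842). Fads1 was at 0 and 2.20 against 33.1 and 0 CPM (-3.86, adjusted p = 0.933), a direction that rested on 1 library. A test of the difference between the 2 gate effects, added after seeing values, called 0 genes of the list, with 1 at an unadjusted p under 0.05 and 0.0139% of all genes called. It was run with edgeR alone.

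Il4-/- x OTII cells had no counts of Scd2 in either library. Scd2 was at 55.4, 48.2, 29.2 and 0 CPM in the TH2 libraries, so 1 TH2 library was also at 0 and the groups met there. Over the group, 3 counts in the Il4-/- libraries would be 0.458 CPM, which is 72.4-fold below the TH2 mean of 33.2 CPM. That figure allows for counting alone and not for the spread between libraries, so it sets no lower limit on the difference. Scd2 was lower than in TH2 at an edgeR adjusted p of 0.0327. It was the 1 gene of 33 called, and it was called lower, against 0.0626% of all genes lower and 0.0695% in either direction. With only the 2 groups in the fit the adjusted p was 1.0, and without Il4-/- replicate 1 or 2 it was 0.159 or 0.113. With only the TH2 pair with Ddx3y, at 29.2 and 0 CPM, it was 0.0125. Scd2 was also at 25.6 and 0 CPM in Bcl6f/fCd4cre libraries, against 9.98 to 66.9 in TFH and 33.3 to 74.7 in TFH2. Values did not overlap for Srebf2 (98.2 and 108 CPM, against 153 to 347 in TH2) and Abcg1 (21.8 and 12.4, against 1.01 to 11.6), 2 of 33 genes against 9.69% of all genes. Their differences of -1.15 ± 0.44 and 2.15 ± 1.90 did not pass (adjusted p = 0.921 and 0.984). Pmvk was at 0 and 0 against 18.7, 13.2, 0 and 10.8 CPM (adjusted p = 0.921), and Msmo1 at 0.574 and 4.90 against 35.1, 40.1, 1.33 and 45.9 (-3.40, adjusted p = 0.921). The median of the list was -0.34, with 0.00 for all genes, and it was 0.29 with only the TH2 pair with Ddx3y, -1.0 and -0.50 without Il4-/- replicate 1 or 2 and -0.11 without TH2 replicate 1.

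Bcl6f/fCd4cre x OTII cells against TH2 cells gave 0 calls among 33 genes by edgeR, with 5 at an unadjusted p under 0.05, and 0.0209% of all genes called by edgeR. DESeq2 called 2 of the 33. The median was -0.88, with -0.04 for all genes, and it was -0.38 without TH2 replicate 2, -0.48 with only the groups compared in the fit and -1.64 and -1.66 without Bcl6f/fCd4cre replicate 1 or 2. Values did not overlap for 7 genes (Dhcr7, Srebf1, Insig1, Acaca, Fasn, Elovl6 and Abcg1), against 9.70% of all genes. Elovl6 was at 0.320 and 0.489 CPM, against 23.0, 16.9, 50.1 and 89.7 in TH2 libraries, the low group by a log2 difference of -6.71 (edgeR adjusted p = 0.708, DESeq2 0.00804). Fasn was at 28.8 and 31.3 CPM against 185, 52.6, 77.2 and 74.1. Acaca was at 12.5 and 18.1 CPM against 0 to 0.337 (6.82, adjusted p = 0.848). Fdps was at 0 and 0 against 57.3, 1.01, 0 and 0 CPM (adjusted p = 0.848), so its difference rested on TH2 replicate 1.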

How the data were processed

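Counts per transcript (RNA-seq) and per gene (QuantSeq) were whole numbers as deposited by the authors, without normalization. Per the submitters' processing notes, Bowtie 0.12.2, STAR 2.7.0c, featureCounts 1.6.0 and the builds mm10, GRCm38.p6 and mm9 were named, and their roles were not given in the sources used here. Transcripts were named from GENCODE M21 (82946 of 95883, the unnamed holding 14.66% of counts), and each gene was represented by its transcript with the most counts. Unnamed QuantSeq features held 0.0062% of counts. CPM was taken over a library's retained counts.

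edgeR 4.0.16 (R 4.3.3, TMM, filterByExpr with a minimum count of 10, robust quasi-likelihood test, 2-sided, Benjamini-Hochberg over all genes) was fitted to all libraries of a kit, with 3 residual degrees of freedom for RNA-seq and 13 for QuantSeq, or 17 with gates pooled. The biological coefficient of variation was 0.0879 by RNA-seq and 1.26 by QuantSeq. The script was tested on simulated data. Alternatives were DESeq2 1.42.0, RLE factors, no filter, only the groups compared, summed transcripts, the mean of the 3 gates, each library left out, and, added after seeing the data, TH2 libraries matched on Xist or Ddx3y. Counts per library are given above as depth.

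The members and lists were chosen with earlier results of these data known. Named genes were every member called at least once, the 3 members of at least 10 CPM with the widest difference in each comparison, and at most 4 called genes of each other list by smallest p.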

Additional observations from a re-analysis of the deposited data

Results flagged for a closer look

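Libraries standing apart from their group were sought in 84 combinations of a group and a measure, of which chance alone flags about 1 in 20, and 10 were found, all in QuantSeq. Among TH2 libraries, replicate 1 had 317 CPM summed over the acetyl-CoA and fatty acid synthesis genes, against 122 to 155 in the others. Replicate 2 had 178 CPM summed over elongation and desaturation genes, against 241 to 245. Replicate 1 had 57.3 CPM of Fdps, against 0 to 1.01. Among TFH libraries, CXCR5hi replicate 1 had 48.5 CPM of Pmvk (0 to 11.6 in the others) and 84.4 of Cyp51 (15.9 to 46.2). CXCR5lo replicate 3 had 43.0 CPM of Sc5d (2.74 to 17.9), CXCR5int replicate 1 had 149 of Scap (10.9 to 59.4), and CXCR5int replicate 2 had 34.9 of Elovl6 (8.77 to 18.6). Among TFH2 libraries, CXCR5lo replicate 2 had 32.2 CPM of Fdps (9.86 to 12.9), and CXCR5lo replicate 1 had 0 of Sqle (11.7 to 16.9).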

How the results depend on the processing

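By RNA-seq, 72 of 84 differences of single genes held their direction and call in every alternative, 45 of 756 alternative values lost the call and 0 reversed. Calls lost were mostly small differences between TFH and naive cells, and those of Mvk and, between TFH and TH2, Scap. Leaving out a library in turn gave 31 to 33 calls for TH2 against naive (main 32), 17 to 19 for TFH against naive (main 25) and 25 to 31 for TFH against TH2 (main 27). By QuantSeq, 16 of 24 named differences held throughout. DESeq2 called 2 genes for TFH CXCR5hi against TH2, 2 for Bcl6f/fCd4cre against TH2, 2 for TFH with gates pooled and 1 for TFH2 with gates pooled, where edgeR called 0. In the first of these, DESeq2 also called 430 higher and 451 lower of all 14380 genes. For TFH2 with gates pooled, only the TH2 libraries with Ddx3y gave 1 call (Dhcr7). For Il4-/- against TH2, only the groups compared gave 0 calls, and leaving out a library gave 0 to 1. For TFH with gates pooled, leaving out a library gave 0 to 1. Fads1 in TFH2 CXCR5hi against CXCR5lo ranged from -8.60 to 4.74 with a library left out, reversed without CXCR5lo replicate 1, the library that held its 33.1 CPM. For the others the cause was not tested. No paired analysis was possible because the labels carry no replicate numbers. QuantSeq depth was 1.83 M to 4.44 M counts, and 3 residual degrees of freedom rest on pairs of RNA-seq libraries.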
